A study of Mus musculus with 8 samples.

Results

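Transcripts of the glands of the stomach and of Brunner's glands, the mucous glands of the duodenum, were followed in intestinal epithelial cells (IECs) of CD1d-KO and wild-type (WT) mice. The group held 10 of the 25239 genes listed in the count table. Muc6, Tff2, A4gnt and Aqp5 belong to gland mucous cells, Capn8 and Capn9 are calpains of mucous cells, Pgc and Cblif belong to chief cells, and Atp4a and Atp4b to the acid-secreting parietal cells. The members were chosen by name when the CD1d-KO against WT values of these same samples were already known, so the difference of each member between genotypes is a description with no test. Of the gland mucous genes, Muc6 and Tff2 were lower in every CD1d-KO sample than in any WT sample. A4gnt and Aqp5 overlapped between genotypes. The calpains lay at like levels in both genotypes, and Pgc and Cblif overlapped. Atp4a was higher in every CD1d-KO sample than in any WT sample, while its partner Atp4b was near 0 throughout.

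The gastric mucosa is built of units that open in a pit of surface mucous cells and continue into a gland. Gland mucous cells secrete the mucin MUC6, whose sugar chains A4GNT caps with N-acetylglucosamine, together with the trefoil peptide TFF2. Brunner's glands of the proximal duodenum make the same products. Chief cells release the pepsinogens and, in mice, intrinsic factor, and parietal cells secrete acid through a proton pump made of the ATP4A and ATP4B subunits.

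The samples came from bulk RNA-seq of 8 mice, 4 CD1d-KO and 4 WT, with 1 sample per mouse. CD1d-KO mice carry the genotype label CD1d1/2 KO, lack the lipid-presenting molecule CD1d and with it natural killer T (NKT) cells, and were compared with mice labelled C57BL/6Jax, with no treatment given to either genotype. Mice were 7 to 10 weeks old and of both sexes, and proximal small intestinal crypt cells were sorted for EpCAM+ and for CD45-, CD31- and Ter119-, so the sort keeps epithelium and removes leukocytes, endothelium and red cells. The knockout is carried by every cell of the animal. No label gives a mouse's sex, or the day or experiment of a sample.

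Total counts ranged from 23610266 to 31629435 per sample, and levels below are normalised counts, that is, counts divided by a DESeq2 size factor of the sample. Raw counts of Cd1d1 were 8, 3, 5 and 0 in CD1d-KO samples 1 to 4 against 81, 70, 94 and 50 in WT samples 1 to 4, the order used for all values below. Y-linked transcripts were abundant only in CD1d-KO samples 1 and 2, so sex and genotype partly overlap. Epcam had between 43027 and 61188 raw counts, and the intestinal genes Olfm4 and Krt8 were abundant too. WT sample 3 stood apart from the other WT samples in several gland genes, and CD1d-KO sample 4 from the other CD1d-KO samples in Tff2, Aqp5 and Pgc. Values without each are therefore given below. Of 15446 genes tested by DESeq2, 4.03% were called at an adjusted p under 0.05, with 2.38% lower and 1.65% higher in CD1d-KO. Groups did not overlap at 9.61% of the genes tested, with 5.52% lower and 4.09% higher in CD1d-KO. Among the 10 members, 8 had an adjusted p, 1 was called lower and 1 higher, and 3 had groups that did not overlap, shares from which nothing is read, because the members were chosen on this contrast. The median log2 fold change of the 8 tested members was -0.83, beside 0.000995 for all tested genes, and nothing is read from it for the same reason.

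The 250 bases upstream of the annotated start were searched on both strands for GATAA and for TATAA, the core of the TATA box. GATAA is a form of the site recognised by the GATA factors of foregut epithelium, and other forms were not searched. RefSeq promoters of build GRCm38.p6, which is the mm10 build of the count table, were found for 8 of the 10 members, all but Tff2 and Atp4b. The sequences of Muc6 (chr7:141655394-141655643, minus strand), A4gnt (chr9:99612252-99612501, plus strand), Pgc (chr17:47726592-47726841, plus strand) and Atp4a (chr7:30711959-30712208, plus strand) are printed 5′ to 3′ because these genes are the mucin, the enzyme that decorates it, the chief cell gene of highest level and the gene of opposite direction. Capitals mark a motif, and a GATAA match on the other strand reads TTATC.
Muc6: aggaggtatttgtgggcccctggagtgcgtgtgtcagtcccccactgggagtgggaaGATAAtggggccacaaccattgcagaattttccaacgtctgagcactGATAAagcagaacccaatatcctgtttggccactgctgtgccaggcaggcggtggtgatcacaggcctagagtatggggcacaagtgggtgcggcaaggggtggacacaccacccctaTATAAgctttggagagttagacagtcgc
A4gnt: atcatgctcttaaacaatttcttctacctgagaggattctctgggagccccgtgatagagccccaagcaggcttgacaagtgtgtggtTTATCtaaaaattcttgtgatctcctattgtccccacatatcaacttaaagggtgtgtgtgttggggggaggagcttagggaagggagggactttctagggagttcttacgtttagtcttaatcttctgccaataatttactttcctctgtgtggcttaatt
Pgc: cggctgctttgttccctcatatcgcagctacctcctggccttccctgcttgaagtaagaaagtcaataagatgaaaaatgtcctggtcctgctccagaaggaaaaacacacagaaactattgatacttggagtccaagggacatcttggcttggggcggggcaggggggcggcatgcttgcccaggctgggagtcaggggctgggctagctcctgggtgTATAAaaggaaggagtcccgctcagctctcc
Atp4a: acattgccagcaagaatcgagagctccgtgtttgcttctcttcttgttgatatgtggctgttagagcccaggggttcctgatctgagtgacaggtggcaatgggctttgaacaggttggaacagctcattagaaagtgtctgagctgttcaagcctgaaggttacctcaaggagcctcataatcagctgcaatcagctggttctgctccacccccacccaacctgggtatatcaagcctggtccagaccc
The Muc6 window held GATAA at 193 to 189 and at 146 to 142 bases upstream, and TATAA at 28 to 24 bases upstream. A4gnt held GATAA on the other strand at 162 to 158 bases upstream, and Pgc held TATAA at 31 to 27 bases upstream. The Atp4a window held neither motif, and of the members not printed only Cblif held a match, TATAA at 240 to 236 bases upstream. Across 32851 mouse promoter windows of the same length, 22.6% held GATAA and 22.8% held TATAA, so matches of this kind are common.

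Muc6 encodes the gel-forming mucin of gland mucous cells and lies at mm10 chr7:141633460-141655393 on the minus strand. Its normalised counts were 219, 204.8, 138.8 and 221.8 in the CD1d-KO samples against 484, 411.9, 1304 and 350.9 in the WT samples. The genotypes did not overlap, CD1d-KO samples sat close together, and WT sample 3 was far above the other WT samples. The group means were 196 ± 38.9 in CD1d-KO and 638 ± 447 in WT (SD, n = 4), with a log2 fold change of -1.70 ± 0.47 (SE). Without WT sample 3 the difference was -1.09 ± 0.18, and over the 15 alternatives it lay between -1.90 and -1.09. In bulk samples, fewer cells of a type among those collected and less RNA per cell cannot be told apart, here and for each gene below. These are not the only possible readings, and none was tested.

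Tff2, the trefoil peptide stored with MUC6, lies at chr17:31141062-31144282 on the minus strand and was the member of widest range. Its normalised counts were 0, 2.86, 30.3 and 159 in the CD1d-KO samples against 293, 327, 2599 and 700 in the WT samples. Each CD1d-KO sample was below each WT sample, but the CD1d-KO samples differed widely among themselves and WT sample 3 held 66.3% of the summed WT level. The fitted log2 fold change was -4.35 ± 1.59 (SE, n = 4 per group). It was -3.19 ± 1.74 without WT sample 3 and -6.47 ± 1.53 without CD1d-KO sample 4. Despite the lack of overlap, Tff2 did not reach the DESeq2 threshold.

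The ratio of the Tff2 to the Muc6 level within a sample takes out any change common to both genes. Computed per kilobase of exon, the ratio was 0, 0.223, 3.49 and 11.5 in the CD1d-KO samples against 9.65, 12.7, 31.8 and 31.9 in the WT samples. CD1d-KO sample 4 lay inside the WT range and the other CD1d-KO samples below it, so in those samples Tff2 was lower relative to Muc6. CD1d-KO sample 1 held no Tff2 count while its Muc6 level was close to that of CD1d-KO sample 4.

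A4gnt, the glycosyltransferase that caps the sugar chains of MUC6, lies at chr9:99612502-99622367 on the plus strand. Its normalised counts were 100, 54.3, 74.3 and 64.3 in the CD1d-KO samples against 111, 124, 196 and 79.5 in the WT samples. WT sample 4 fell below CD1d-KO sample 1, so the genotypes overlapped, and WT sample 3 was again the highest. The log2 fold change was -0.80 ± 0.28 (SE), and -0.52 ± 0.26 without WT sample 3.

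Aqp5, a water channel of the apical membrane of gland mucous cells, lies at chr15:99591028-99594829 on the plus strand and was detected at low levels. Raw counts were 0, 2, 0 and 7 in the CD1d-KO samples against 6, 5, 45 and 13 in the WT samples. CD1d-KO sample 4 exceeded WT samples 1 and 2, and WT sample 3 held 61.8% of the summed WT level. The fitted log2 fold change was -3.04 ± 0.99 (SE). Leaving out WT sample 3 gave -2.06 ± 1.12 and leaving out CD1d-KO sample 4 gave -4.81 ± 1.31, so the size of the difference at these counts depends on single samples.

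**Figure D1:**
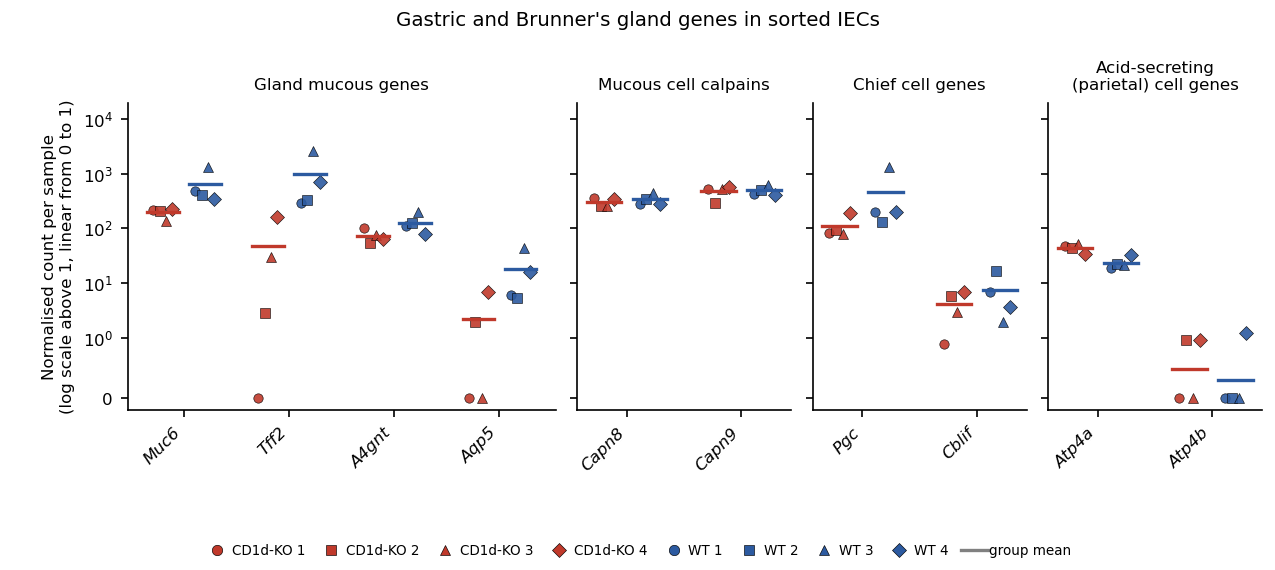
Normalised count of each of the 10 genes in each sample, on a log axis that is linear between 0 and 1, with 4 CD1d-KO samples in red, 4 WT samples in blue and the group mean as a bar. Muc6 and Tff2 do not overlap between genotypes, WT 3 is the highest sample for 7 genes, and Atp4a is the gene whose CD1d-KO samples all lie above WT.

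The calpains CAPN8 and CAPN9 are calcium-dependent proteases that pair in the mucous cells of the stomach. Capn8 (chr1:182565007-182632352, plus strand) had normalised counts of 355, 259, 252 and 347 in the CD1d-KO samples against 280, 351, 449 and 282 in the WT samples. Capn9 (chr8:124576111-124618731, plus strand) had 532, 292, 528 and 575 in the CD1d-KO samples against 424, 499, 633 and 413 in the WT samples. Both genes overlapped between genotypes, and WT sample 3 was the highest of all samples for each. The log2 fold change was -0.17 ± 0.18 (SE) for Capn8 and -0.03 ± 0.20 for Capn9, the latter turning to 0.11 ± 0.20 without WT sample 3. Both calpains were thus present in every sample, including CD1d-KO samples 1 to 3, in which Tff2 and Aqp5 were lowest.

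Of 13 other calpain family genes, 11 were tested, 2 were called lower and 0 higher in CD1d-KO by DESeq2, and the unadjusted p was under 0.05 for 4 lower and 0 higher. The edgeR test also called 2 lower and 0 higher. Capn2, the large subunit of m-calpain, fell by 0.67 ± 0.16 on the log2 scale (SE, DESeq2 adjusted p = 0.00174), from 187 to 242 normalised counts in WT to 106 to 155 in CD1d-KO samples. Capn15, a calpain of the small optic lobe type, fell by 0.33 ± 0.07 on the log2 scale (DESeq2 adjusted p = 0.000256). Neither gene overlapped between genotypes, and with only the samples without Y-linked counts both lost the call at log2 fold changes of -0.49 ± 0.19 for Capn2 and -0.28 ± 0.10 for Capn15 (SE). Capn1 and the shared small subunit Capns1 were not called, with log2 fold changes of 0.03 ± 0.06 and -0.10 ± 0.06 (SE).

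Pgc encodes pepsinogen C, a zymogen of chief cells that mucous glands are also known to make, and lies at chr17:47726842-47734478 on the plus strand. Its normalised counts were 83.2, 92.4, 80.2 and 192 in the CD1d-KO samples against 196, 133, 1299 and 199 in the WT samples. WT sample 3 was far above every other sample and held 71.1% of the summed WT level, and CD1d-KO sample 4 lay inside the range of the other WT samples. The log2 fold change of -2.03 ± 0.81 (SE) became -0.66 ± 0.30 without WT sample 3. DESeq2 gave no adjusted p to Pgc because an outlying count was marked by Cook's distance.

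Cblif, which encodes gastric intrinsic factor, a product of chief cells in the mouse, lies at chr19:11747559-11763447 on the plus strand. Raw counts were 1, 6, 3 and 7 in the CD1d-KO samples against 7, 16, 2 and 3 in the WT samples. Counts were low in every sample and the genotypes overlapped, with a log2 fold change of -0.85 ± 0.85 (SE). Unlike Pgc, Cblif was not raised in WT sample 3, where 2 reads were counted.

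Other chief cell genes were mostly absent. Lipf, the gastric lipase, had 0 counts in all 8 samples, and Pga5, a pepsinogen A, and Chia1, the acidic chitinase of mouse stomach, were at or under 3 counts in each sample. Bhlha15 and Tnfrsf19, which are also expressed outside the stomach, were the 2 of these 5 genes that could be tested. Neither was called by DESeq2 or edgeR, although the unadjusted p of Tnfrsf19 was under 0.05, with log2 fold changes of -0.37 ± 0.21 and -0.34 ± 0.16 (SE). In WT sample 3, Pgc was therefore abundant while Cblif, Pga5 and Lipf were at or under 3 counts.

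Atp4a, the catalytic subunit of the gastric proton pump, lies at chr7:30712209-30725534 on the plus strand. Its normalised counts were 46.5, 43.8, 51.8 and 34.6 in the CD1d-KO samples against 18.7, 22, 21.3 and 31.8 in the WT samples. Each CD1d-KO sample was above each WT sample, although CD1d-KO sample 4 and WT sample 4 were separated by only a few counts. The means were 44.2 ± 7.21 in CD1d-KO and 23.4 ± 5.75 in WT (SD, n = 4), with a log2 fold change of 0.93 ± 0.30 (SE) that stayed between 0.83 and 1.10 over the 15 alternatives. Atp4a lay 2167 bases from Tmem147 and 4245 bases from Gapdhs, and its exons shared 0 bases with those of another gene.

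Atp4b, the glycosylated subunit that carries ATP4A to the membrane, lies at chr8:13386209-13396778 on the minus strand. Raw counts were 0, 1, 0 and 1 in the CD1d-KO samples against 0, 0, 0 and 1 in the WT samples, under the floor of 3 counts in each sample, so no fold is given. Parietal cells make both subunits, and here Atp4a transcripts were counted in samples with at most 1 read of Atp4b.

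Parietal cell genes chosen for their role in acid secretion ranged from absent to abundant. Slc26a7 and Cckbr, a chloride transporter of the parietal membrane and the gastrin receptor, had 0 counts in all samples, and Kcne2 and Hrh2, a potassium channel subunit and the histamine receptor, were at or under 3 counts. Kcnq1, Slc4a2, Clic6, Aqp4 and Esrrg were abundant in every sample, Kcnq1 between 5049 and 6936 normalised counts and Esrrg between 1135 and 1457. They were thus abundant in samples that held no Slc26a7 or Cckbr count, and which cells made them was not tested. The potassium channel genes Kcnj15 and Kcnj16 lay between, at 4.76 to 17.1 and 5.76 to 18.1 normalised counts. Of these 12 genes 8 were tested, 2 were called lower and 0 higher in CD1d-KO, and the unadjusted p was under 0.05 for 3 lower and 1 higher. The edgeR test called 1 lower and 0 higher.

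Slc9a4, the sodium and proton exchanger of the parietal basolateral membrane, had normalised counts of 9.83, 15.2, 12.7 and 9.60 in the CD1d-KO samples against 23.6, 19.9, 88.2 and 42.8 in the WT samples. The genotypes did not overlap and WT sample 3 was highest, as for Muc6 and Tff2 and not for Atp4a. Slc9a4 fell by 1.88 ± 0.49 on the log2 scale (SE, DESeq2 adjusted p = 0.00668), and the call was lost without WT sample 3, where the log2 fold change was -1.27 (DESeq2 adjusted p = 0.127). Slc4a2, the anion exchanger AE2, fell by 0.22 ± 0.05 on the log2 scale (DESeq2 adjusted p = 0.00093), from 4811 to 5049 normalised counts in WT to 4073 to 4348 in CD1d-KO samples. Of 7 sodium pump and colonic proton pump genes related to Atp4a and Atp4b, 4 were tested and 0 were called by DESeq2 or edgeR, with an unadjusted p under 0.05 for 0. Atp12a, the colonic pump, was at or under 3 counts in each sample.

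**Figure D2:**
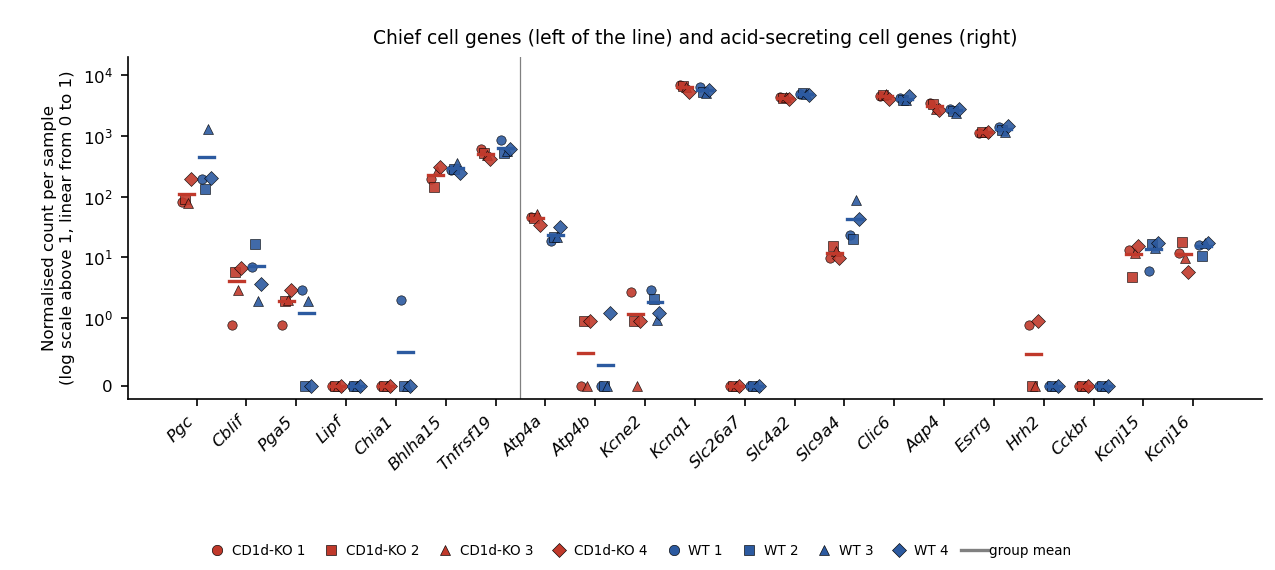
Normalised count per sample, on a log axis that is linear between 0 and 1, of chief cell genes to the left of the line and of acid-secreting cell genes to the right, with CD1d-KO samples in red, WT samples in blue and group means as bars. Lipf, Slc26a7 and Cckbr are at 0 in all 8 samples, Atp4b does not exceed 1 read, and Slc9a4 has its highest value of 88.2 in WT 3.

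Levels can be compared between genes only per kilobase of exon. On that scale Tff2 led in WT, at 1716 ± 1918 normalised counts per kilobase (SD, n = 4), before Pgc at 330 ± 406 and Capn9 at 211 ± 43.5. Ranges over samples overlapped between these neighbours, and the spread of the first pair was as large as their means. Capn9 stood above Capn8 (91.9 ± 21.4) with no overlap, and Capn8, Muc6 (69.9 ± 49.1) and A4gnt (46.2 ± 17.9) overlapped in turn. A4gnt stood above Aqp5 (11.4 ± 11.6) with no overlap, and Aqp5, Atp4a (6.70 ± 1.64) and Cblif (4.77 ± 4.33) overlapped in turn.

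In CD1d-KO the order per kilobase began with Capn9 at 207 ± 55.0 (SD, n = 4). Tff2 at 84.3 ± 132, Capn8 at 81.8 ± 14.9 and Pgc at 80.9 ± 38.8 followed, with ranges that overlapped from each to the next. Pgc stood above A4gnt (26.6 ± 7.14) with no overlap, and A4gnt overlapped with Muc6 (21.5 ± 4.27). Muc6 stood above Atp4a (12.6 ± 2.06), and Atp4a above Cblif (2.65 ± 1.73), each with no overlap. Aqp5 and Atp4b ended the order, at 1.39 ± 2.05 and 0.360 ± 0.416. Tff2, Pgc, Muc6 and Aqp5 thus stood lower in this order than in WT. A4gnt, both calpains, Atp4a and Cblif stood higher, and Atp4a ranked above Aqp5. Muc6 and A4gnt were neighbours with overlapping ranges in both genotypes.

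**Figure D3:**
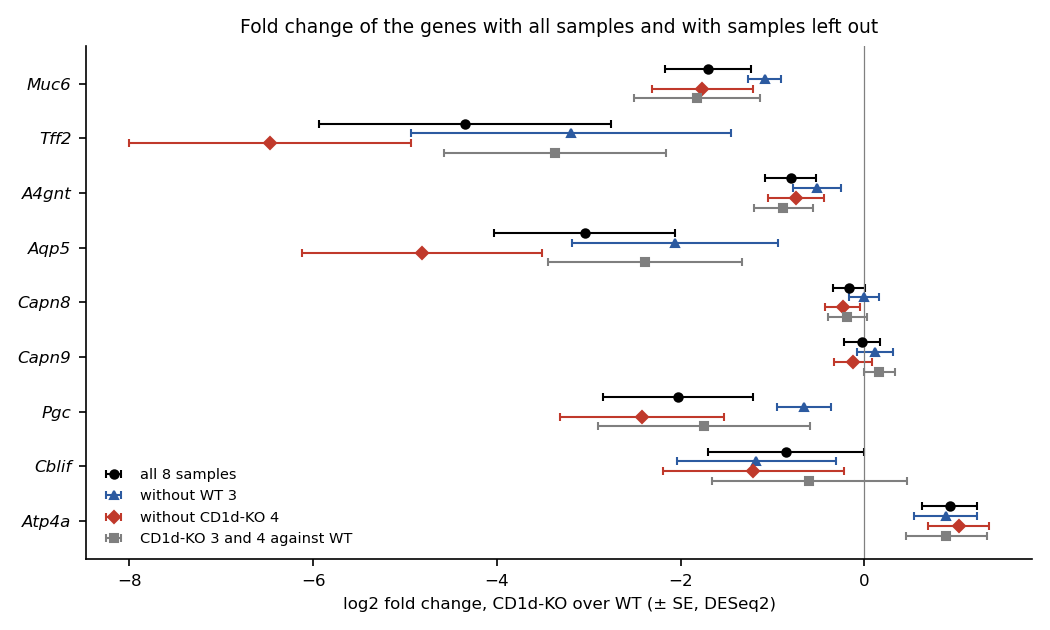
log2 fold change of CD1d-KO over WT (points) with its SE (bars) for 9 genes with all samples, without WT 3, without CD1d-KO 4, and with CD1d-KO 3 and 4 alone against WT. Pgc moves from -2.03 to -0.66 without WT 3, Tff2 moves from -4.35 to -6.47 without CD1d-KO 4, and Atp4a stays near 0.93.

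Other genes listed for gland mucous cells had smaller fold changes than Tff2, with a median log2 fold change of -0.075 over those tested. Of 7 such genes 6 were tested, 1 was called lower and 0 higher in CD1d-KO by DESeq2, with an unadjusted p under 0.05 for 1 lower and 0 higher and the same counts by edgeR. Dmbt1, a scavenger receptor glycoprotein that is also abundant in the intestine, fell by 0.56 ± 0.06 on the log2 scale (SE, DESeq2 adjusted p = 1.13e-14), and its genotypes did not overlap. Gkn3, a gastrokine of mucous neck cells, had normalised counts of 905, 823, 522 and 682 in the CD1d-KO samples against 713, 608, 1225 and 562 in the WT samples. WT sample 3 was highest and the genotypes overlapped, with a log2 fold change of -0.08 ± 0.31 (SE). The mucin Muc5b was at or under 3 counts in each sample.

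Genes of the gastric pit, the surface neighbour of the glands, had a median log2 fold change of -5.30, beyond that of each member. The list was written with earlier results of these data known, and its direction is not independent evidence. All 10 were tested, 6 were called lower by DESeq2 and 0 higher, 9 had genotypes that did not overlap, and the unadjusted p was under 0.05 for 10 lower and 0 higher. Muc5ac, the surface mucin, had normalised counts of 0, 0, 0 and 19.2 in the CD1d-KO samples against 10.8, 90.1, 2350 and 840 in the WT samples, and was called lower (log2 fold change -7.42 ± 2.35, DESeq2 adjusted p = 0.0431). Gkn1, a gastrokine, had 0.894, 0, 0 and 92.2 in the CD1d-KO samples against 298, 310, 2634 and 1550 in the WT samples and was not called.

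Ctse, the aspartic protease cathepsin E, fell by 4.42 ± 1.32 on the log2 scale (SE, DESeq2 adjusted p = 0.0275). Cldn18, a claudin of gastric tight junctions, fell by 5.37 ± 1.69 (DESeq2 adjusted p = 0.042) and Anxa10, an annexin of gastric epithelium, fell by 5.17 ± 1.34 (DESeq2 adjusted p = 0.00617). Vsig1, a junctional adhesion protein, fell by 4.32 ± 1.05 (DESeq2 adjusted p = 0.00273). Psca, a surface antigen, had 0, 0, 0 and 1.92 normalised counts in CD1d-KO and 4.91, 17.8, 116 and 73.3 in WT samples and was called lower (DESeq2 adjusted p = 0.00157). With each of the 8 samples left out in turn, Vsig1 and Psca were called every time, whereas the calls of Muc5ac and Ctse were lost 7 times, that of Cldn18 5 times and that of Anxa10 1 time, without WT sample 3. Without WT sample 4, DESeq2 gave Cldn18 and Anxa10 no adjusted p. In the fits that lost the call, the log2 fold change stayed between -7.83 and -6.03 for Muc5ac, between -4.72 and -3.57 for Ctse and between -5.71 and -4.30 for Cldn18. The quasi-likelihood test of edgeR called 9 of the 10 pit genes lower and 0 higher.

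The summed level of the 10 pit genes was 8.05, 4.76, 7.82 and 476 in the CD1d-KO samples against 1209, 1305, 12190 and 6645 in the WT samples. WT sample 3 was highest and CD1d-KO sample 4 was the highest of its genotype, as for Muc6, Tff2, Aqp5 and Pgc. For Muc6, however, CD1d-KO sample 4 (221.8) barely exceeded CD1d-KO sample 1 (219.0). The part of pit cells in the gland gene values was not tested.

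The sum of Muc6, Tff2, A4gnt and Aqp5 was 319, 264, 243 and 452 in the CD1d-KO samples against 893, 868, 4143 and 1147 in the WT samples. In CD1d-KO samples 1 to 3, pit genes were close to 0 while this sum was not, most of it coming from Muc6 and A4gnt. Across the 8 samples, Tff2 correlated with the 10 pit genes at Pearson r from 0.871 to 0.948 and Aqp5 at 0.906 to 0.947. For Muc6 r ran from 0.796 to 0.875, for Pgc from 0.767 to 0.875 and for A4gnt from 0.547 to 0.657, whereas Atp4a had r from -0.843 to -0.684. These values, on log2(normalised count + 1), describe 8 samples that share the genotype split and the high WT sample 3, and carry no p.

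Gland mucous, chief, acid and pit genes outside the group were 34 in all, and 26 were tested. Of these, 9 were called lower and 0 higher in CD1d-KO by DESeq2, beside 2.38% lower and 1.65% higher of all tested genes. The unadjusted p was under 0.05 for 1 higher, and edgeR called 0 higher. The genes called lower were 6 pit genes with Slc9a4 and the abundant Dmbt1 and Slc4a2. The lists were written with earlier results of these data known, so the count is not independent evidence. The count of 9 was 4 without WT sample 3, 5 without WT sample 4, where Cldn18 and Anxa10 had no adjusted p, and 13 without CD1d-KO sample 4. It was 2, Dmbt1 and Psca, when only the samples without Y-linked counts were compared, a fit of CD1d-KO samples 3 and 4 against WT with fewer mice.

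Hormone genes of stomach and intestine were read beside them. Gast, the hormone of antral G cells, had normalised counts of 0.894, 3.81, 1.96 and 5.76 in the CD1d-KO samples against 5.89, 47.2, 223 and 22 in the WT samples. WT sample 3 was highest, the genotypes were separated by a narrow gap, and Gast fell by 4.59 ± 1.15 on the log2 scale (SE, DESeq2 adjusted p = 0.00408). It was the only one of 5 such genes called, kept the call with each sample left out in turn, and lost it among the samples without Y-linked counts (log2 fold change -4.27, DESeq2 adjusted p = 0.129). Ghrl and Sst, which the duodenum also makes, had log2 fold changes of -0.02 ± 0.37 and 0.33 ± 0.38 (SE) and were not called.

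Transcription factors that set stomach or intestine identity showed no call among 15 tested by DESeq2 or by edgeR, with an unadjusted p under 0.05 for 1 lower and 1 higher. Sox2, which specifies stomach, had 0 counts in all CD1d-KO samples and 1.96, 0, 21.3 and 2.44 normalised counts in WT samples, so it was present chiefly in WT sample 3. Pdx1, of antrum and duodenum, ranged from 386 to 584 in CD1d-KO and from 354 to 824 in WT samples, with a log2 difference of -0.41 ± 0.21 (DESeq2 adjusted p = 0.335). The intestinal factor Cdx2 ranged from 6664 to 8057 and had a log2 fold change of -0.02 ± 0.08 (SE).

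**Figure D4:**
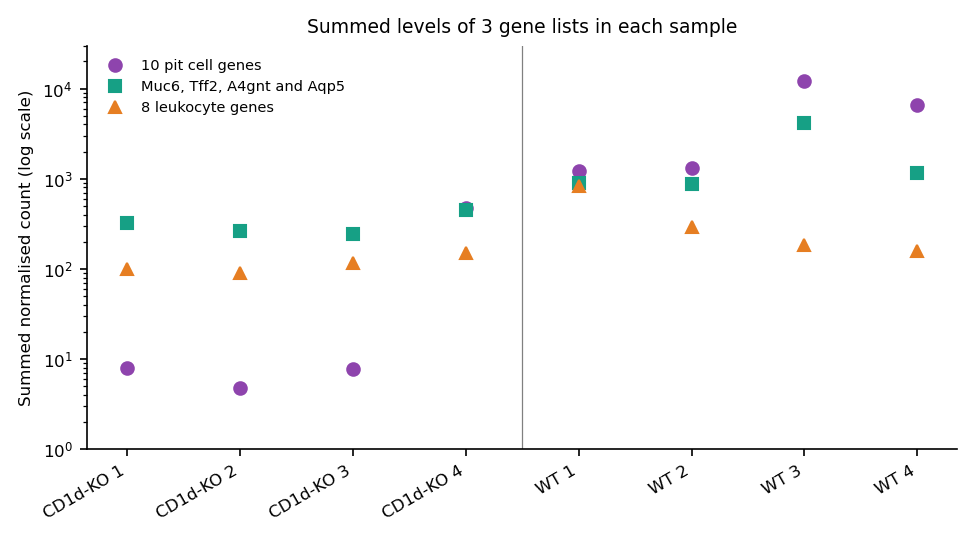
Summed normalised counts per sample, on a log axis, of 10 pit cell genes (circles), of Muc6, Tff2, A4gnt and Aqp5 (squares) and of 8 leukocyte genes (triangles), with the line separating CD1d-KO from WT samples. Pit genes lie under 10 in CD1d-KO 1 to 3, at 476 in CD1d-KO 4, where circle and square nearly coincide, and peak at 12190 in WT 3, whereas leukocyte genes peak at 826 in WT 1.

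Markers of other cells were read in the same samples. The summed level of 8 leukocyte genes was 100, 90.5, 116 and 149 in the CD1d-KO samples against 826, 290, 184 and 156 in the WT samples, all WT samples above all CD1d-KO samples, and 2 of the 8, Jchain and Coro1a, were called lower by DESeq2. Its highest sample was WT sample 1 and not WT sample 3, and its part in the gland gene values was not tested. Ptprc, which encodes CD45, ranged from 34.9 to 86.4 in CD1d-KO and from 69.7 to 119 in WT samples.

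Of 10 squamous forestomach genes, 6 were at or under 3 counts in every sample, Krt5 and Krt6a among those at 0, and the sum ran from 73.9 to 104.6 in CD1d-KO and from 75.8 to 109 in WT samples, nearly all of it Sbsn and Krt4. Of 10 exocrine pancreas genes, 8 were at or under 3 counts. Clps, pancreatic colipase, was the only one tested, was called higher in CD1d-KO rising by 0.83 ± 0.17 on the log2 scale (SE, DESeq2 adjusted p = 0.000105), and had Ctrb1 as its nearest by level, at no more than 3.93 normalised counts. The sum of 8 stroma and endothelium genes ran from 13.6 to 47.1, chiefly Pecam1 and Acta2. Of 6 duodenal genes, led by Fabp1 and Lct, and 5 ileal genes, led by Fabp6 and Slc51a, 0 were called by DESeq2 or edgeR. The unadjusted p was under 0.05 for 0 duodenal genes and for 1 ileal gene in each direction. Fabp1 averaged 12650 normalised counts in CD1d-KO and 8762 in WT, and Fabp6 averaged 11340 and 13240. The leading genes of both regions were thus abundant in these samples.

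The genes whose pattern over the 8 samples was most like that of the lead member of each class were ranked by Pearson r among the 11715 genes whose normalised counts averaged 50 or more. For Tff2 these were Ap1m1, Syvn1, Rmc1, Oas2 and Anks1, with r from 0.989 down to 0.972. Their own highest over lowest sample ratios were only 1.14 to 3.59. For Pgc they included Zfp456, Far1, Pdlim7 and Fbxl18 (r from 0.954 down to 0.921), and for Atp4a they were Thap12, Xxylt1, Snx18, Eef1a1 and Tcp1 (r from 0.985 down to 0.970), whose highest over lowest ratios were 1.15 to 1.30. Ranked by Spearman rho, 2 of the 5 genes named for Tff2 remained and 0 of the 5 for Pgc and for Atp4a. No pit gene was among these names, although the pit genes shared the wide range of Tff2.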

How the data were processed

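RNA of sorted IECs from 4 CD1d-KO and 4 WT mice was sequenced from KAPA mRNA libraries. The authors deposited raw counts per gene with no normalization. Per the file headers, featureCounts 1.6.4 counted read pairs over exons without strand on an mm10 RefSeq annotation, while the submitters' processing notes and the study's methods name HISAT2 and GRCm39. Coordinates are those of the table. Primary alignments were counted, so reads of near-identical copies may be misplaced. The table had 0 sample columns that were not used, and 19088 of 25239 genes had a count.

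DESeq2 1.42.0 (R 4.3.3) was run on the deposited counts of all 8 samples with genotype as the only term, with Benjamini-Hochberg adjustment over the 15446 genes tested. A gene was called at an adjusted p under 0.05. Independent filtering removed genes under a mean of 2.41. The fit was tested on simulated counts. Alternatives were edgeR 4.0.16 (quasi-likelihood), TMM factors, low count filters, no Cook's rule, a replicate block, samples without Y-linked counts and leaving out each sample.

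Members, lists and tests were chosen with earlier results of these data known. Named were all 10 members, every called gene of the gland, pit, hormone, factor, calpain and pump lists, the 2 most abundant genes of each marker list, Muc5ac, Gkn1, Pga5, Sox2, Pdx1 and Cd1d1, and for each class the 5 genes of highest r with its most abundant member. Other genes named were chosen after their values were seen, and 1 gene that the rule names is not reported here. Within a genotype, a chi-square of counts gave 9.88 to 37.9 per degree of freedom for each pair, so no sample was a copy of another. Each p-value sets the difference between genotypes against the spread between mice, and counting error alone limits counts under the floor of 3. Sex, which partly overlaps with genotype, was not a term of the main fit. The paper states that its mice were not littermates and that their microbiota may therefore differ.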

Additional observations from a re-analysis of the deposited data

Results flagged for a closer look

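Dixon's ratio, above its 95% critical value, was used to flag samples that lay far from the other 3 of their genotype. Such samples were flagged in 12 of 51 groups of 4 samples examined over 26 genes. Groups with all raw counts at or under 3 were among the 51 but were not flagged, whatever their ratio. CD1d-KO sample 4 accounted for 7 and WT sample 3 for 3 of these 12. A chance rate of about 1 in 20 groups assumes independent groups of normally distributed values. Here the ratio was taken on untransformed normalised counts, several genes varied together, and genes were chosen with earlier results known. The 12 flags therefore cannot be set against that rate and are a description.

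Among the gland genes, Muc6 was high in WT sample 3 at 1304 normalised counts against 350.9 to 484 in the other WT samples. Pgc was high in WT sample 3, at 1299 against 133 to 199, and in CD1d-KO sample 4, at 192 against 80.2 to 92.4. Capn9 was low in CD1d-KO sample 2, at 292 against 528 to 575.

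Among the pit genes, CD1d-KO sample 4 stood above the other CD1d-KO samples for Muc5ac (19.2 against 0), Ctse (87.4 against at most 3.91), Cldn18 (17.3 against at most 0.894), Anxa10 (16.3 against at most 1.96), Vsig1 (15.4 against at most 2.68) and Gkn1 (92.2 against at most 0.894). Sox2 was high in WT sample 3, at 21.3 against at most 2.44. Capn15 was low in WT sample 4, at 1446 against 1546 to 1563.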

How the results depend on the processing

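Of 144 values of the members' log2 fold changes recomputed over 15 settings, 141 moved by less than 1 SD of the log2 levels within a genotype, 0 called values changed sign, and 3 moved further, namely Aqp5 without CD1d-KO sample 4 (-4.81), Pgc without WT sample 3 (-0.66) and Atp4b, near 0 counts, without WT sample 4. Leaving out independent filtering or Cook's rule changes only p-values, so the fold changes of those settings could not move. The SD is each gene's own, so Tff2 counted as unmoved between -6.47 and -3.19. The uncalled difference of Capn9 changed sign without WT sample 3 (0.11), without CD1d-KO sample 2 (0.15) and in samples without Y-linked counts (0.16). Muc6 was called in 11 and Atp4a in 5 of the 15 settings. The count of all genes called was 622, and was 228 with edgeR and 372 without the samples holding Y-linked counts. Leaving out 1 sample at a time gave 323 to 646, the count falling by more than 1.5 times without CD1d-KO sample 2 (323), WT sample 1 (406) or WT sample 2 (385). The count of other gland and pit genes called lower was 9, 2 without the samples holding Y-linked counts, and 4 to 13 with 1 sample left out, while the count called higher was 0 in every setting. The labels number the samples but do not tie equal numbers, and deviations of equal numbers correlated at 0.13, -0.09, 0.18 and -0.08, with 2 of 4 numbers matching their own best. With a replicate block, 569 genes were called, 434 of them shared, and Tff2 was the only member called. The cause of these changes was not tested. Of the genes named as most like Tff2, Pgc and Atp4a, 3, 4 and 4 of 5 remained with a pseudocount of 10 and 1, 4 and 3 of 5 with TMM-scaled counts. Counts of Aqp5, Cblif and Atp4b were too low for firm folds.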
